A study of Mus musculus with 38 samples.

Results

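The 36 genes described here code for transcription factors that mark regions of the forebrain and were taken by symbol from a list of septal, preoptic, hypothalamic, thalamic, striatal and pallial factors. All 36 were among the 25230 genes of the count table, and 35 of them were among the 16309 genes with enough counts to be tested. Six6, a factor of the suprachiasmatic nucleus, was not tested: it had no count in 26 of 38 libraries and at most 10 counts in any library. The members were sorted into 7 groups by their known roles, with 4 Zic factors of the septum and midline, 3 preoptic factors, 5 hypothalamic factors, 7 striatal factors, 8 factors of GABAergic neurons, 4 thalamic factors and 5 pallial or broadly used factors.

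The tissue was dissected from the adBNST. The BNST (bed nucleus of the stria terminalis) borders the septum, and the anterodorsal part is a GABA-rich cell group of the basal forebrain that takes part in anxiety and stress responses. The mice were WT, and no transgene or other agent is named for any group. There were 9 libraries of stressed females, 10 of control females, 9 of stressed males and 10 of control males. Stressed mice went through 6 weeks of chronic variable mild stress, a random sequence of mild stressors such as cage tilting, restraint and swimming. The sources used here do not give the ages of the mice. Libraries were made from poly-A RNA with a stranded kit. No label ties a library to an animal of its own, and p-values therefore reflect only how libraries differ, which may in part be technical. A library is abbreviated by its group and number, as FS7 for stressed female 7, FC5 for control female 5, MS5 for stressed male 5 and MC9 for control male 9.

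Regional transcription factors are switched on in patches of the embryonic forebrain and set which neurons each patch makes. Many stay on in adult neurons, so their mRNAs carry a record of where cells came from. The adBNST is surrounded by tissue with other sets of these factors: the septum medially, the striatum laterally, the preoptic area and hypothalamus below and the thalamus behind. In bulk tissue, fewer cells of a type and less RNA per cell cannot be told apart.

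Total counts per library ran from 9.1 to 84.8 M, with a median of 27.3 M. A subset of 5 libraries (FS1, FS2, FC1, FC6 and MC3) had the highest levels of the myelin transcript Mbp, from 9034 to 13349 CPM (counts scaled to a common library size). MS5 held choroid plexus transcripts, with a summed level of 3260 CPM over 9 markers. The labels number the libraries from 1 within each group, and those numbered 6 and above (18 libraries) differed widely from those numbered 1 to 5 (20 libraries), with all 4 groups in both sets. Many factors differed with one feature or the other, so values within each number set and without the 5 libraries are given beside the results they change.

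Promoters of 32 of the 36 factors were matched in RefSeq (GRCm38.p6), as windows from 250 bases before to 50 bases after a transcription start. The promoters of Zic1, Zic4, Tbr1 and Lhx1 are shown because Zic1 with Zic4 and Tbr1 with Lhx1 vary together over libraries and are among the factors the stress results name or describe. Capitals mark GGGCGG (the GC box read by Sp factors) and TAATTA (the core read by many homeodomain factors such as Dlx and Lhx proteins) on either strand. Zic1 lies at chr9:91365719-91366018 on the minus strand, Zic4 at chr9:91368722-91369021 on the plus strand, Tbr1 at chr2:61804203-61804502 on the plus strand and Lhx1 at chr11:84525485-84525784 on the minus strand, each read 5′ to 3′ on its own strand.
Zic1: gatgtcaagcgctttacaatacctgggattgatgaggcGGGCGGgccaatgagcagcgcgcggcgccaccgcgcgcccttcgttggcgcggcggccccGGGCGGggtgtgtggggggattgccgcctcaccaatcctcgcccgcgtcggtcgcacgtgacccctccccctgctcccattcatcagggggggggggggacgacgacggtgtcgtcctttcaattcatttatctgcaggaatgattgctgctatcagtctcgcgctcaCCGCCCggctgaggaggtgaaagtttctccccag
Zic4: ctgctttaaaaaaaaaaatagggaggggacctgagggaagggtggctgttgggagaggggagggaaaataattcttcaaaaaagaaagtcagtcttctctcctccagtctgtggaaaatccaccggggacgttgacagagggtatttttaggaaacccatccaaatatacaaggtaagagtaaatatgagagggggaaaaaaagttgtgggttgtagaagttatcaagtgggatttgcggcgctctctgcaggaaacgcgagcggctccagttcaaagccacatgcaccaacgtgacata
Tbr1: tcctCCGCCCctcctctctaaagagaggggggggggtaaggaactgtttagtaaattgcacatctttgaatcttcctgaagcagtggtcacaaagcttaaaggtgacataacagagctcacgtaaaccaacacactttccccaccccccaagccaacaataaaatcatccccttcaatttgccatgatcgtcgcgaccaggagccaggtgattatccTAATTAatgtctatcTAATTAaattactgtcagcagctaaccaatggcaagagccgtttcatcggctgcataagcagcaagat
Lhx1: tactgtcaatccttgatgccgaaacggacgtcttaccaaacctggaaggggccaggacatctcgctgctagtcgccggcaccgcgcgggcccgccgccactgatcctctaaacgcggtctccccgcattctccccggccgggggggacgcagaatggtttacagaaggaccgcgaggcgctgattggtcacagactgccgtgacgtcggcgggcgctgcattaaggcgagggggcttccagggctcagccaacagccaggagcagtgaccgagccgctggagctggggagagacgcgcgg

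Zic1 and Zic4 are neighbours that are read away from each other, and RefSeq's genes overlap at their starts by 138 bases. The Zic4 window shown does not lie at this overlap but at a start inside the gene, which RefSeq bounds at chr9:91365631-91389351. The Zic1 window held 3 GC boxes and this Zic4 window none. Tbr1 held 2 copies of TAATTA and 1 GC box, and Lhx1 held neither motif. TAATTA was found in 3 of 50 promoter windows of the factors and in 5.29% of 32851 mouse promoters of the same length. GGGCGG was found in 25 of the 50 windows and in 35.7% of all. TGTTTAC, a core read by Fox factors, was in 1 of the 50 and in 3.65% of all, and the palindrome read by Ebf factors was in 0 of the 50 and in 0.904% of all. A match is a description of these letters and not of binding. The windows of the factors had a median GC content of 57.8%, against 52.7% over all promoters.

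A trio of striatal factors and the GABAergic factor Dlx5 stood highest, on the scale of CPM per kilobase of exons that allows levels of different genes to be compared. Meis2, a homeobox factor of the lateral ganglionic eminence and its striatal neurons, had a median level of 90.7 CPM per kb and was above Bcl11b in 38 of 38 libraries. Bcl11b, a zinc-finger factor of striatal projection neurons, followed at 25.3 CPM per kb and was above Foxp1 in 38 of 38. Foxp1, a forkhead factor of the same neurons, stood at 19.0 CPM per kb and the GABAergic homeobox factor Dlx5 at 17.8, and these neighbours did not differ beyond their spread, with Foxp1 higher in 18 of 38 libraries. Lhx6, which acts after Nkx2-1 in neurons of the medial ganglionic eminence, stood at 15.1 and Six3, a homeobox factor of the anterior forebrain and of striatal neurons, at 14.7, with Lhx6 higher in 18 of 38.

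The median level of Bcl11a was 11.6 CPM per kb, that of Dlx6 9.67, of the nuclear receptor Nr2f2 9.36, of the LIM-homeobox factor Isl1 8.83 and of Dlx1 7.26. Nr2f1 followed at 7.07, Zic2 at 6.86, Nkx2-1 at 6.78, Sp9 at 6.73, Foxp2 at 6.03, Dlx2 at 5.82 and Zic1 at 5.73 CPM per kb. From Nr2f1 down to Dlx2 each gene exceeded the next in 16 to 28 of 38 libraries, and only Sp9 over Foxp2 reached 28. Lhx2 (5.17), the homeobox factor Prox1 (4.80), Lhx8 (4.54), Ebf1 (4.09), Tcf7l2 (3.59), Satb1 (3.57), Nkx2-2 (2.62), Lef1 (1.87), Otp (1.84), Tbr1 (1.72), Meis1 (1.57) and Zic4 (1.45) held the lower middle of the order in CPM per kb.

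At the low end, 5 tested factors had a median level under 0.5 CPM per kb. They were Sp8 at 0.387, Lhx1 at 0.290, Zic5 at 0.240, Sim1 at 0.179 and Lhx9 at 0.114 CPM per kb. Zic4 was above Sp8 in 38 of 38 libraries, and Lhx9, the lowest of those tested, was above Six6 in 37 of 38. Dlx1, Dlx2, Dlx5 and Dlx6, which together mark forebrain GABAergic neurons, had reads in all 38 libraries, as did the preoptic factors Nkx2-1, Lhx6 and Lhx8. The same held for every other member except Lhx1, with no count in 4 libraries, and Six6, with none in 26. Slc17a7, the vesicular glutamate transporter of cortical neurons and no member of the list, ran from 2.11 to 16.0 CPM. It belongs to a list of 9 cortical markers, whose sum ran from 629.3 to 2175 CPM.

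**Figure D1:**
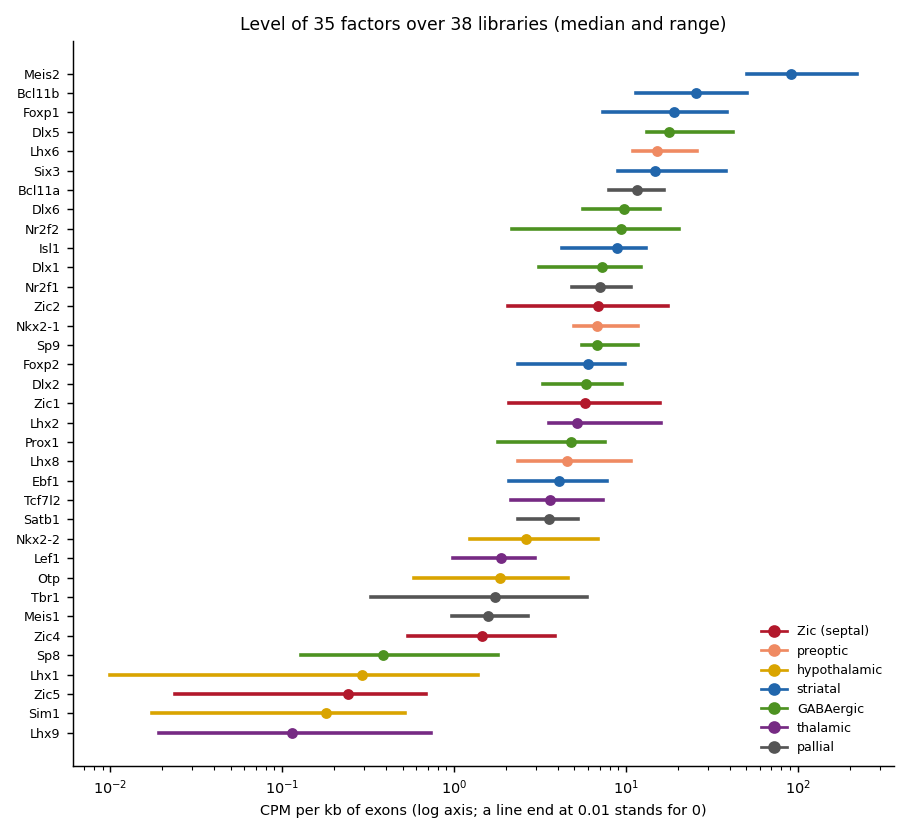
Median level (point) and range (line) of 35 factors over 38 libraries in CPM per kb of exons on a log axis, coloured by role group, with a line end at 0.01 standing for 0. Meis2 stands at 90.7 CPM per kb and Lhx9 at 0.114, and the lowest factors have the widest lines.

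Most of the factors varied more between libraries than the typical gene, and the low ones varied most. The spread was taken as the SD of log2 CPM over the 38 libraries, after the means of each group and number set were subtracted. Its median was 0.39 over the 35 factors and 0.31 over the 16309 genes tested, and 26 of the 35 factors were above that median of all genes. Lhx1 had the widest spread at 1.63, followed by Lhx9 (1.08), Sim1 (1.03), Tbr1 (1.02) and Otp (0.85), all low in this tissue. Bcl11a (0.18), Isl1 (0.21) and Dlx6 (0.21) varied least. Without the 5 libraries of high Mbp the medians were 0.31 for the factors and 0.23 for all genes, with 27 factors above. The order then changed, with Lhx9 widest at 1.13 and Lhx1, which had no count in 4 of the 5, next at 1.04. Without the 5 libraries Dlx5 was at 0.18 against 0.37 with all libraries and Six3 at 0.19 against 0.35.

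Stress was compared with control conditions in each sex, the question the series was designed for, with edgeR's quasi-likelihood test and Benjamini-Hochberg adjustment over all genes tested. In stressed against control females, 0 of 35 factors passed (adjusted p under 0.05), as 0% of all genes did, and at an unadjusted p under 0.05 there was 1 factor (1.89% of all genes). DESeq2 also called 0 factors in this and in each other comparison of stress or sex. With all libraries in the fit, all 4 Zic members had a positive difference in both sexes, with a median of 0.28 on the log2 scale in females and 0.58 in males, where the medians over all genes were 0.01 and -0.02. In females that direction turned within libraries numbered 1 to 5, where all 4 were lower in stressed than in control females. The direction was not tested as a list.

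Sp8, a zinc-finger factor of interneurons that also marks new neurons bound for the olfactory bulb, had the smallest p in females. It ran from 0.628 to 8.08 CPM with a median of 1.68 in stressed females, and from 0.875 to 3.23 with a median of 1.73 in control females. The groups overlapped, and the highest values belonged to FS7 (8.08) and FS8 (5.44). The difference was 0.83 ± 0.37 (log2 fold change ± SE, stressed over control, adjusted p = 1, edgeR), and it took opposite signs in the sets, 1.65 among libraries numbered 6 and above and -0.43 among those numbered 1 to 5. Without FS7 it was 0.47.

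Tbr1, a T-box factor of glutamatergic pallial neurons, ran from 2.64 to 9.68 CPM with a median of 4.13 in stressed females, and from 1.35 to 24.1 with a median of 7.06 in control females. A pair of control females, FC5 (24.1) and FC4 (18.8), lay above every stressed female, and FC2 (2.36), FC1 (1.88) and FC6 (1.35) lay below every stressed female. The difference in females was -0.69 ± 0.42 (adjusted p = 1, edgeR), and it stood at -0.35 without FC5, at 0.25 among libraries numbered 6 and above and at -1.47 among those numbered 1 to 5. Lhx9, a LIM-homeobox factor of the thalamus and pretectum, ran from 0.205 to 1.44 CPM with a median of 0.509 in stressed females, against 0.324 to 5.50 with a median of 0.854 in control females. FC5 alone lay above the stressed females. Its difference of -0.88 ± 0.53 (adjusted p = 1, edgeR) was -0.18 without FC5, and 0.40 among libraries numbered 6 and above against -2.003 among the others.

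In stressed against control males, 0 of 35 factors passed as well, as 0% of all genes did, and 4 had an unadjusted p under 0.05 (4.02% of all genes). Tbr1 ran from 5.21 to 20.4 CPM with a median of 19.1 in stressed males, and from 1.60 to 15.2 with a median of 6.21 in control males. Of the 9 stressed males, 5 stood between 19.1 and 20.4 CPM, above every control male. The difference was 1.19 ± 0.41 (adjusted p = 0.863, edgeR), with 1.19 among libraries numbered 6 and above and 1.18 among those numbered 1 to 5.

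Lhx1, a LIM-homeobox factor of the suprachiasmatic nucleus and of other cells at the forebrain's borders, ran from 0.534 to 4.54 CPM with a median of 2.95 in stressed males, and from 0 to 2.64 with a median of 0.761 in control males. MS5, the library with choroid plexus transcripts, was the lowest stressed male, and 6 of the 9 stressed males lay above every control male. The difference was 1.58 ± 0.58 (adjusted p = 0.863, edgeR), with 2.04 and 1.18 among libraries numbered 6 and above and 1 to 5. These are low counts, with at most 151 reads of Lhx1 in any library.

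Zic1, a zinc-finger factor of the septum and dorsal midline, ran from 28.3 to 73.2 CPM with a median of 56.4 in stressed males, and from 11.7 to 56.6 with a median of 28.0 in control males. The groups overlapped, although the 4 stressed males numbered 6 and above (58.4 to 73.2) lay above all control males. The difference was 0.68 ± 0.29 (adjusted p = 0.863, edgeR), with 0.81 in libraries numbered 6 and above and 0.60 in those numbered 1 to 5. In females Zic1 ran from 16.8 to 88.6 CPM with a median of 27.4 in stressed and from 14.1 to 52.1 with a median of 31.0 in control libraries, a difference of 0.30 ± 0.29. The stressed females split by number, with those numbered 6 and above at 40.8 to 88.6 CPM and those numbered 1 to 5 at 16.8 to 27.4.

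The other Zic genes did not pass either. In stressed males Zic2 gave 0.47 ± 0.25, Zic4 0.46 ± 0.34 and Zic5 0.72 ± 0.39, and in stressed females they gave 0.26 ± 0.25, 0.44 ± 0.34 and 0.13 ± 0.40. The female differences took opposite signs in the sets. Among libraries numbered 6 and above Zic1 gave 1.04, Zic2 1.07, Zic4 1.10 and Zic5 0.69, and among those numbered 1 to 5 they gave -0.72, -0.54, -0.50 and -0.87. Among libraries numbered 1 to 5 Zic1 stood at 16.8 to 27.4 CPM in stressed females, against 24.5 to 48.2 CPM in control females. In males all 4 were positive in each set, from 0.51 to 0.81 among libraries numbered 6 and above and from 0.47 to 0.91 among those numbered 1 to 5. Single libraries also moved the female values, which without FS8 were 0.067 for Zic1, 0.025 for Zic2 and 0.21 for Zic4, and without FS7 -0.24 for Zic5. Marker lists of neighbouring tissue were read beside them. Ependymal markers, from the ciliated cells that line the ventricles, summed over 8 genes to between 47.2 and 182.6 CPM in stressed males and between 35.5 and 208.2 in control males. In females the sums ran from 42.6 to 186.8 CPM with a median of 82.6 in stressed and from 30.1 to 157.4 with a median of 60.6 in control libraries. All 8 ependymal markers had a positive stress difference in females, with a median of 0.22, and 4 of 8 in males, with a median of -0.010, and 0 passed in either sex. These genes mark one cell type, and the share of all genes above 0 was not taken. Their sum had a median of 146.2 CPM in libraries numbered 6 and above and 47.0 in the others. The stress difference of the markers is not given by set here. The part of the ependymal markers in the Zic differences was not tested.

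**Figure D2:**
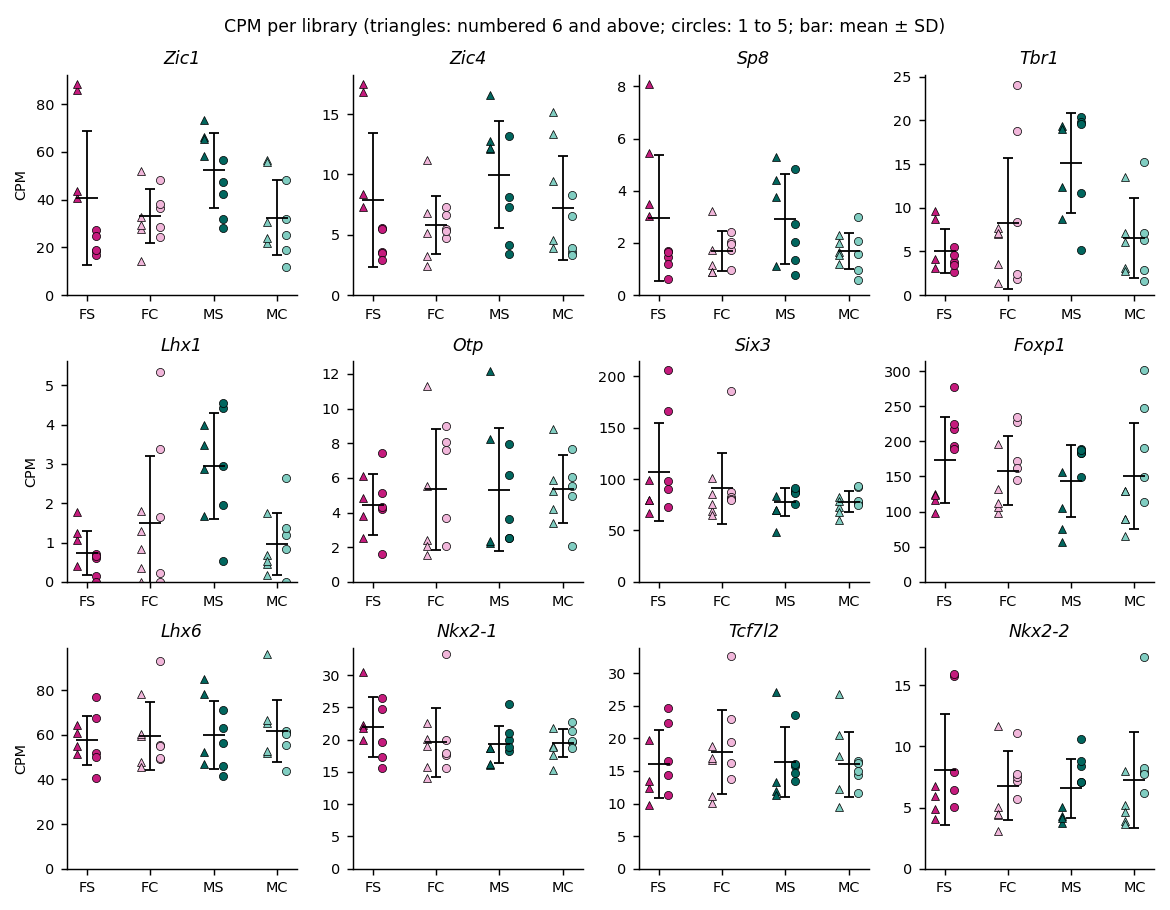
CPM of 12 factors in every library, in stressed (FS) and control (FC) females and stressed (MS) and control (MC) males, with triangles for libraries numbered 6 and above, circles for 1 to 5 and bars for the group mean ± SD. Most stressed males stand high in the panels of Tbr1 and Lhx1, and the stressed females split by number in the panels of Zic1 and Sp8.

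**Figure D3:**
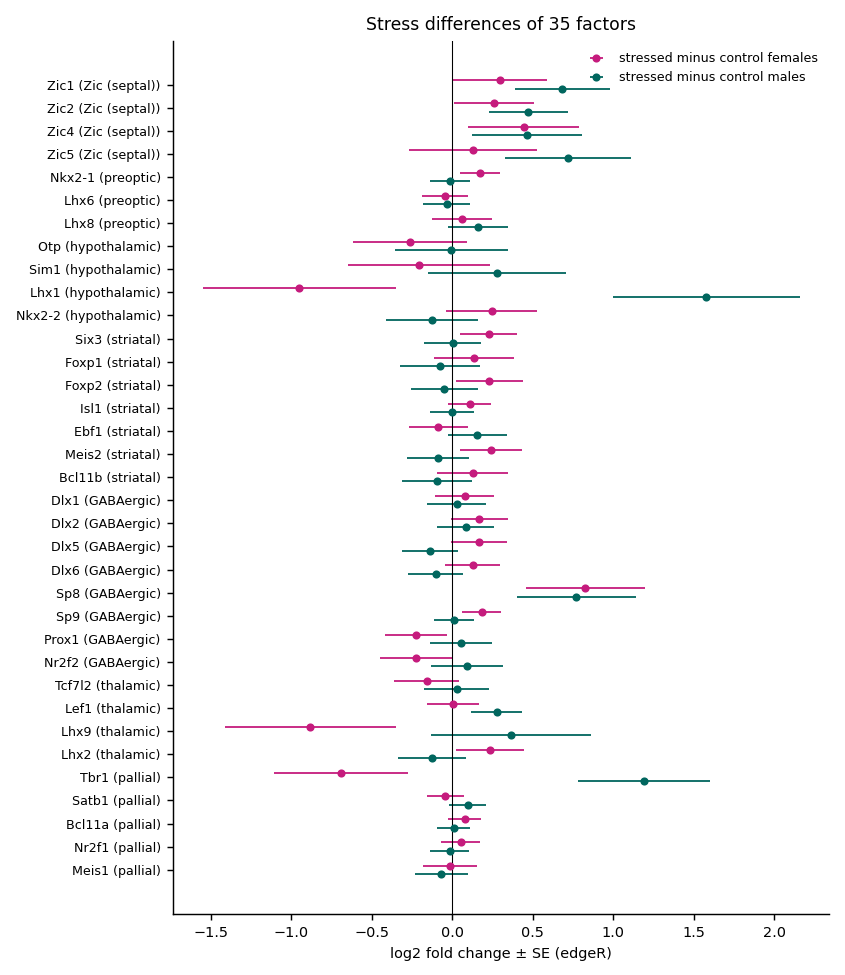
Stress difference of 35 factors (log2 fold change ± SE, edgeR) in females and in males, grouped by role. Most points lie near 0, the 4 Zic genes and Sp8 lie above 0 in both sexes with all libraries (in females, below 0 within libraries numbered 1 to 5), and Lhx1, Lhx9 and Tbr1 lie below 0 in females and above 0 in males.

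Averaged over the sexes, the stress difference passed for 0 of 35 factors and for 0% of all genes, with 3 factors (1.47% of all genes) at an unadjusted p under 0.05. Sp8 gave 0.80 ± 0.26, Zic1 0.49 ± 0.21 and Zic2 0.37 ± 0.17 (adjusted p = 1 each, edgeR). All 3 differences were larger in the higher-numbered set, with 1.36, 0.92 and 0.79 among libraries numbered 6 and above, against 0.0080, -0.062 and -0.035 among those numbered 1 to 5. Of the 35 factors 28 lay above 0 in the average, with a median of 0.053, where the median over all genes was -0.0033.

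Whether stress acted differently in males and females was tested by the interaction, the stress difference in males minus that in females, which passed for 0 of 35 factors and 0% of all genes. At an unadjusted p under 0.05 there were 2 factors, against 4.51% of all genes. Tbr1 gave 1.88 ± 0.59 and Lhx1 2.53 ± 0.83 (adjusted p = 0.845 each, edgeR). Both were positive in each set, at 0.94 and 1.69 among libraries numbered 6 and above and 2.65 and 3.38 among those numbered 1 to 5. Lhx9 gave 1.25 ± 0.73 (adjusted p = 0.845, edgeR), but -0.31 among libraries numbered 6 and above and 2.95 among the others, and 0.56 without FC5.

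Between control males and control females 0 of 35 factors passed the adjusted threshold, against 0.0674% of all genes (0.0491% higher and 0.0184% lower in males), and 0 factors had an unadjusted p under 0.05 (4.16% of all genes). The smallest p belonged to Lhx2, a LIM-homeobox factor of the dorsal forebrain and thalamus. It ran from 12.1 to 24.4 CPM with a median of 15.1 in control males, and from 13.9 to 37.2 with a median of 18.9 in control females. The highest females were FC6 (37.2) and FC1 (33.4), both among the 5 libraries of high Mbp. The male minus female difference was -0.37 ± 0.21 (adjusted p = 1, edgeR), -0.25 without FC6 and -0.11 without the 5 libraries. Lef1, an effector of Wnt signalling in the thalamus, gave -0.27 ± 0.16, and -0.06 among libraries numbered 6 and above against -0.47 among the others. Sp9, a zinc-finger factor of striatal and other GABAergic neurons, gave -0.20 ± 0.12, -0.11 without FC1 and -0.05 without the 5 libraries.

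Stressed males were also compared with stressed females. At the adjusted threshold 0 of 35 factors passed (0.0858% of all genes, 0.0797% higher and 0.00613% lower in males), and at an unadjusted p under 0.05 there were 10 factors, where 11.1% of all genes were. Tbr1 was 5.21 to 20.4 CPM in stressed males and 2.64 to 9.68 CPM in stressed females, and 7 of the 9 males lay above every female. The difference was 1.57 ± 0.43 (adjusted p = 0.305, edgeR), with 1.22 and 1.94 in libraries numbered 6 and above and 1 to 5. Lhx1 gave 1.92 ± 0.61 (adjusted p = 0.378, edgeR), with 1.41 and 2.62. Lhx2 ran from 11.997 to 18.05 CPM with a median of 14.7 in stressed males, against 15.1 to 53.9 with a median of 19.0 in stressed females. Its difference of -0.73 ± 0.22 (adjusted p = 0.376, edgeR) was -0.50 without FS2 and -0.25 without the 5 libraries, of which FS2 (53.9) and FS1 (46.8) were the highest of all for Lhx2. The other factors under an unadjusted p of 0.05 were Lhx9, Nr2f2 and Prox1, with higher values in males, and Sp9, Six3, Meis2 and Dlx5, with lower values in males, all named after their values were seen. Without the 5 libraries the male minus female difference was -0.10 for Six3, against -0.45 with all, -0.17 for Meis2, against -0.47, -0.089 for Dlx5, against -0.40, and -0.22 for Sp9, against -0.38.

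Factors of several role groups differed between the 2 sets of library numbers, with all of the striatal factors among them. With group in the model, 16 of 35 factors passed between libraries numbered 6 and above and those numbered 1 to 5, while 45.5% of all genes did, so the share of factors was close to that of genes at large. Of the 16 factors 12 fell and 4 rose in the libraries numbered 6 and above, against 22.3% of all genes lower and 23.2% higher. All 7 striatal factors were among those that fell, with a median of -0.57 on the log2 scale, and 3 of 4 Zic factors were among those that rose, with a median of 0.71, where the median over all genes was 0.01. No preoptic or thalamic factor passed, nor did Otp, Sim1 or Lhx1 among the hypothalamic ones.

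Dlx6, a homeobox factor of GABAergic neurons, had the smallest p. It ran from 12.5 to 20.9 CPM with a median of 15.6 in libraries numbered 6 and above, and from 20.4 to 35.002 with a median of 25.2 in those numbered 1 to 5, so the sets barely overlapped. It fell by 0.60 ± 0.07 on the log2 scale (adjusted p = 4.84e-08, edgeR). Its neighbour on the chromosome, Dlx5, lies 9830 bases away and did not pass. Foxp1 ran from 57.2 to 195.5 CPM with a median of 108.9 in libraries numbered 6 and above, against 113.7 to 301.5 with a median of 189.1 in the others, and fell by 0.83 ± 0.12 (adjusted p = 7.24e-07, edgeR). Bcl11b ran from 92.3 to 254.6 CPM with a median of 159.6, against 179.2 to 410.4 with a median of 242.6 in the others, and fell by 0.73 ± 0.10 (adjusted p = 6.49e-07, edgeR).

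The remaining striatal factors moved less far in the same direction. In libraries numbered 6 and above the forkhead factor Foxp2 fell by 0.68 ± 0.10, Ebf1, a factor of striatonigral neurons, by 0.57 ± 0.09, and Meis2 by 0.50 ± 0.11. Six3 fell by 0.38 ± 0.11 and Isl1, which helps to set the identity of striatonigral neurons, by 0.38 ± 0.07 (edgeR, adjusted p from 1.62e-06 to 0.00461 over these genes). Meis1, a relative of Meis2, fell by 0.54 ± 0.08 and Nkx2-2, a homeobox factor of the ventral diencephalon that oligodendrocyte precursors also use, by 0.79 ± 0.16. The other 3 that fell were Prox1, a homeobox factor of caudal interneurons (-0.44 ± 0.12), and Bcl11a, the zinc-finger relative of Bcl11b (-0.22 ± 0.06), beside Dlx6.

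Zic4 rose by 0.81 ± 0.21 (adjusted p = 0.0018, edgeR), with 2.44 to 17.5 CPM and a median of 10.4 in libraries numbered 6 and above, against 2.88 to 13.2 and a median of 5.39 in the others. Zic5 rose by 0.87 ± 0.25 and Zic1 by 0.62 ± 0.19, while Zic2 did not pass. The remaining factor that rose was Dlx2, a homeobox factor upstream of Dlx5 and Dlx6, at 0.32 ± 0.12. The sets overlapped in each of these 4 genes, and FC6, a library numbered 6 and above with high Mbp, was the lowest of its set for Zic1, Zic4 and Zic5. Without the 5 libraries of high Mbp 18 factors passed.

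Lists of markers of other cells also differed between the number sets. All 10 striatal markers that are not transcription factors were lower in libraries numbered 6 and above (median -0.76), and their sum ran from 781.8 to 4239 CPM there and from 1627 to 4831 in the others. All 12 oligodendrocyte markers were lower (median -0.92), summing to 4740 to 24122 CPM against 9176 to 26324. All 8 ependymal markers were higher (median 1.51), summing to 45.3 to 208.2 CPM against 30.1 to 84.0. Not every list moved as its factors did. The sum of 9 thalamic markers had a median of 257.4 CPM in libraries numbered 6 and above and 184.5 in the others, and no thalamic factor passed. The sum of 11 hypothalamic markers had medians of 671.2 and 551.3 CPM, and that of 5 septal markers 87.6 and 77.2. Of 52 tested transcription factors of the forebrain outside the list, 21 passed, 16 lower and 5 higher. Over all genes 45.5% passed, 22.3% lower and 23.2% higher, so the share passing among these 52 was no higher. The part of these markers and factors in the shift of the regional factors was not tested.

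**Figure D4:**
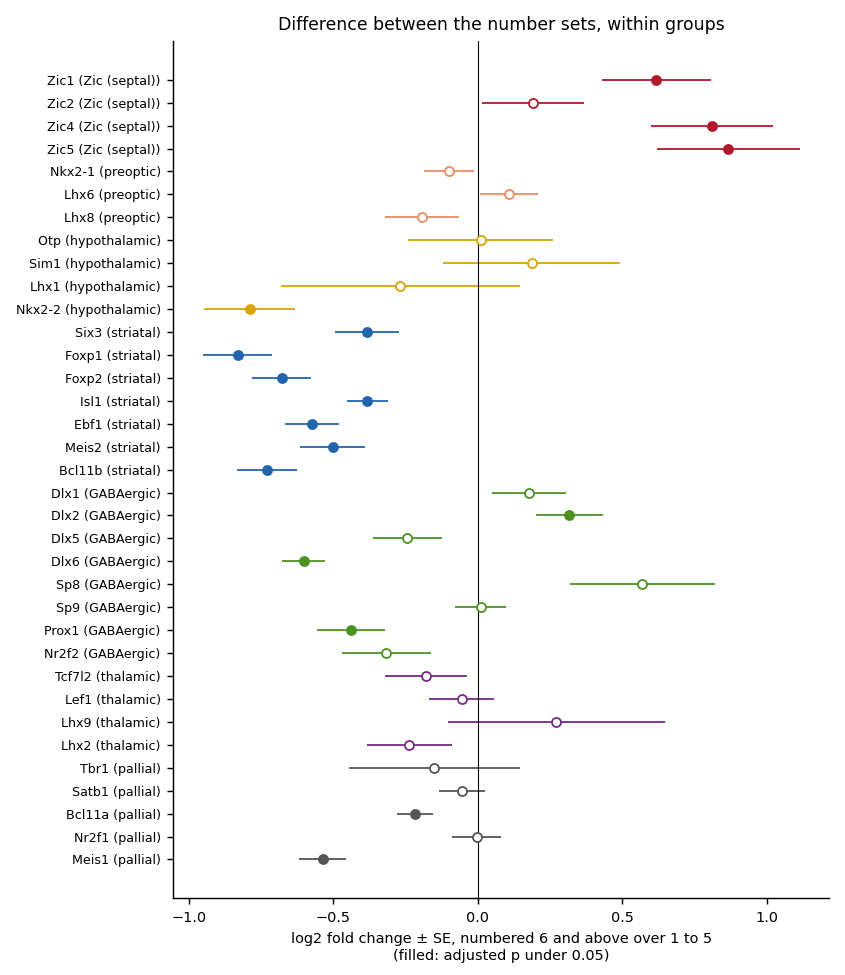
Difference of 35 factors between libraries numbered 6 and above and libraries numbered 1 to 5 (log2 fold change ± SE, edgeR, group in the model), coloured by role group, with filled points for an adjusted p under 0.05. All 7 striatal factors lie below 0 and are filled, and 3 of the 4 Zic factors lie above 0 and are filled.

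The factors varied together over libraries in a few sets. Pairs of other genes were not counted. The counts below therefore do not show whether these factors varied together more than genes at large did. Over 38 libraries, after group and number-set means were subtracted, 237 of 595 pairs of factors passed a permutation test of Pearson's r with 100000 resamples (adjusted p under 0.05 over the 595), 157 with a positive and 80 with a negative r. Pairs within a role group passed in 44 of 80 cases, 38 with a positive and 6 with a negative r, with a median r of 0.320. Pairs across role groups passed in 119 cases with a positive and 74 with a negative r of 515, with a median r of 0.0718. All 6 pairs of Zic factors passed, with a median r of 0.734, and 15 of 21 pairs of striatal factors, with a median of 0.620. Among the preoptic factors the median was 0.351 (1 of 3 pairs passed) and among the thalamic factors 0.342 (3 of 6). The median was lower in the remaining role groups. It was 0.0392 among the factors of GABAergic neurons (11 of 28 pairs passed) and 0.0335 among the hypothalamic factors (4 of 6). Among the pallial or broadly used factors it was 0.125 (4 of 10). In the 5 libraries of high Mbp several factors stood far from the rest, so r is also given without them.

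Foxp1 and Bcl11b had an r of 0.931 and a Spearman rho of 0.907, and r was 0.924 without the 2 libraries farthest from the median of Foxp1. Their r was 0.931 within libraries numbered 6 and above, 0.932 within 1 to 5 and 0.932 without the 5 libraries. Meis2 and Bcl11b had an r of 0.852 (rho 0.828, and 0.840 without the 2 farthest), with 0.893 and 0.825 within the sets and 0.900 without the 5. Zic1 and Zic2, which lie on chromosomes 9 and 14, had an r of 0.873 (rho 0.854, and 0.840 without the 2 farthest libraries), with 0.903 and 0.837 within the sets and 0.893 without the 5. Lhx1 and Tbr1, on chromosomes 11 and 2, had an r of 0.885 (rho 0.862, and 0.858 without the 2 farthest), with 0.872 and 0.895 within the sets and 0.880 without the 5. Sim1, a factor of neurosecretory neurons of the hypothalamus, and Nr2f2 had an r of 0.856 (rho 0.843, and 0.837 without the 2 farthest), with 0.846 and 0.893 within the sets and 0.868 without the 5. Each of these 5 pairs had an adjusted permutation p of 9.92e-05 for r, a floor set by the number of resamples.

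Six3, Sp9 and Dlx5 leaned more on the libraries of high Mbp. Six3 and Sp9 had the highest r of all pairs, 0.936 (rho 0.914), which was 0.912 without FC1 and FS1, 0.914 and 0.947 within the sets and 0.831 without the 5. Six3 and Dlx5 had an r of 0.902 (rho 0.866, and 0.834 without the same 2), with 0.836 and 0.924 within the sets and 0.689 without the 5. Dlx5 and Sp9 had an r of 0.871 (rho 0.835, and 0.805 without the same 2), with 0.916 and 0.875 within the sets and 0.733 without the 5. Each of these pairs also had an adjusted permutation p of 9.92e-05 for r, and none of them is a neighbouring pair of genes. Six3 stood at 206.5 CPM in FS1, 185.4 in FC1 and 166.0 in FS2, and at no more than 101.2 CPM in the other 35 libraries.

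The lowest correlations paired Lhx1 or Zic5 with Nkx2-2, Meis2 or Dlx5. Lhx1 and Nkx2-2 had an r of -0.737 (rho -0.570), which was -0.684 without the 2 farthest libraries, and -0.374 without the 5 and no longer passed (adjusted permutation p = 0.0795). Lhx1 had no count in FS2, FC1, FC6 and MC3, and these were 4 of the 5 libraries of high Mbp. Lhx1 and Dlx5 had an r of -0.705 (rho -0.604, and -0.563 without the 2 farthest), and -0.236 without the 5 (adjusted permutation p = 0.292). Zic5 and Meis2 had an r of -0.735 (rho -0.756, and -0.637 without the 2 farthest), and -0.633 without the 5, and Zic5 and Dlx5 -0.712 (rho -0.630, and -0.610 without the 2 farthest), and -0.456 without the 5. Adjusted permutation p for r with all libraries was at most 0.000178 in these 4 pairs.

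Neighbouring genes of the list were compared as well. Zic1 and Zic4, which overlap head to head, had an r of 0.823 (rho 0.827, and 0.837 without the 2 farthest), with 0.916 and 0.700 within the sets and 0.890 without the 5 libraries, and reads from the overlap cannot be assigned with certainty since the strand setting of the counting is not given. Dlx1 and Dlx2, 9426 bases apart, had an r of 0.684 (rho 0.717, and 0.784 without the 2 farthest), with 0.608 and 0.770 within the sets, and 0.821 without the 5 libraries. Dlx5 and Dlx6 had an r of 0.615 (rho 0.580, and 0.541 without the 2 farthest), with 0.558 and 0.782 within the sets, and 0.490 without the 5. Zic2 and Zic5, 9725 bases apart, had an r of 0.535 (rho 0.594, and 0.425 without the 2 farthest, adjusted permutation p = 0.00243), with 0.835 within libraries numbered 6 and above and 0.212 within 1 to 5, and 0.676 without the 5. Nkx2-2, Six3, Dlx1 and Dlx6 also overlap antisense genes of the count table, from which their reads may not be fully separate.

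**Figure D5:**
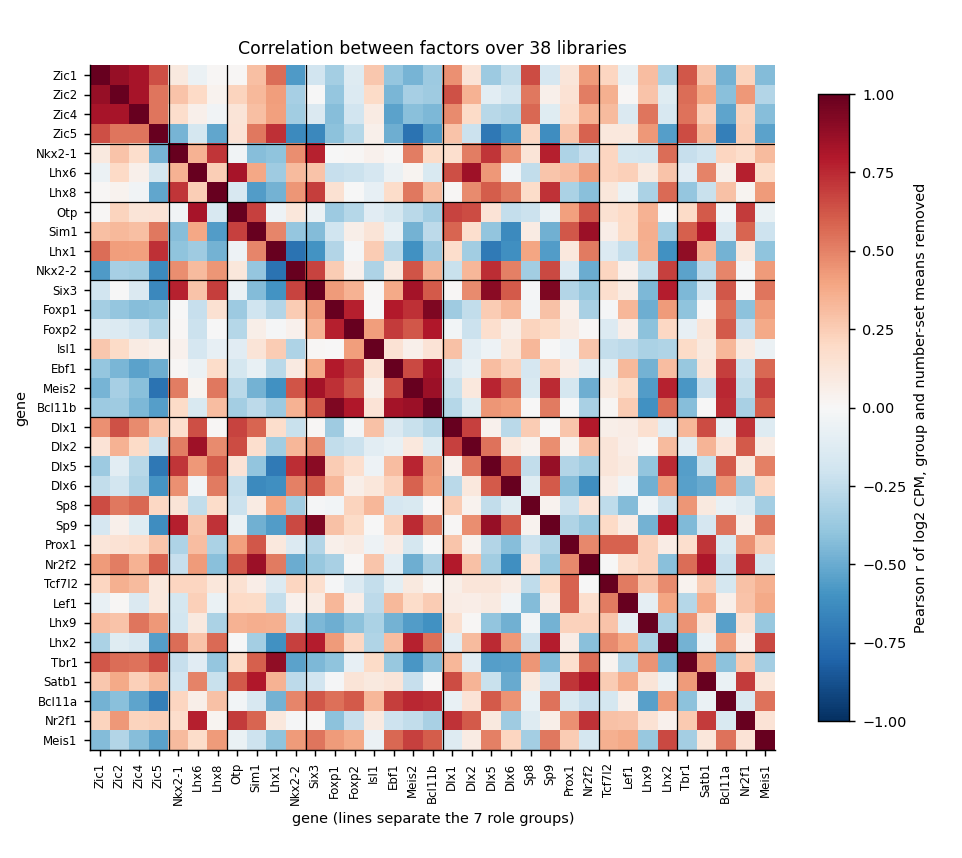
Pearson r between each pair of 35 factors over 38 libraries, from log2 CPM with group and number-set means removed, with lines between the 7 role groups. The Zic block at the top left and most of the striatal block are red, and the striatal factors are mostly blue against the Zic factors.

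Genes outside the list that followed a factor most closely were named for 6 factors by the Spearman rho over the same 38 libraries among 16274 tested genes. Tbr1 was followed by the helix-loop-helix factors Ebf3 (0.939) and Ebf2 (0.906) and by the channel gene Cnga3 (0.889). Among the genes that followed Zic1 were Dnah7b (0.776) and Fgd5 (0.772), and Six3 was followed by Ski (0.895), Pkig (0.869) and Rac1 (0.866). Without the 5 libraries rho was 0.926 for Ebf3 with Tbr1, 0.718 for Dnah7b with Zic1 and 0.703 for Ski with Six3. Otp was followed by Nos1ap (0.833), Prdm13 (0.830) and Aldh3b2 (0.830), Nkx2-1 by Slc10a4 (0.797), Dusp23 (0.775) and Marcksl1 (0.770), and Tcf7l2 by Afap1 (0.812), Chd7 (0.795) and Vegfa (0.771). These genes were picked as the highest of many, so their rho is a description.

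Each factor was also set against 14 lists of markers of other cells and regions. Of 490 relations 167 passed the permutation test (adjusted p under 0.05 over the 490), 93 positive and 74 negative. The share passing among genes outside the list of factors was not counted. The rule for named genes did not cover these relations, so those given here are examples from the 490. Those of the Zic factors with septal markers are not given. Foxp1 had an r of 0.881 with the striatal markers (rho 0.850), Bcl11b 0.865 and Meis2 0.848, and these were 0.917, 0.871 and 0.870 without the 5 libraries. Within libraries numbered 6 and above and 1 to 5, the r of Foxp1 was 0.908 and 0.844. Nkx2-2 had an r of 0.771 with oligodendrocyte markers (rho 0.680), with 0.850 and 0.768 within the sets and 0.600 without the 5. Lhx9 had an r of 0.712 with thalamic markers (rho 0.660), with 0.792 and 0.630 within the sets and 0.723 without the 5. The summed level of the 4 thalamic factors did not follow these markers in the 5 libraries of high Mbp. It had a median of 65.6 CPM there, from 32.3 in MC3 to 87.5 in FS2, and 39.7 in the other 33 libraries. The sum leans on the higher factors, and Lhx2 alone stood at 53.9 CPM in FS2. The sum of the thalamic markers had a median of 143.0 CPM in the 5 libraries and 249.9 in the other 33. Zic5 had 0.692 with ependymal markers (rho 0.594), with 0.853 and 0.495 within the sets and 0.615 without the 5. Zic1 had 0.596 with the same list (rho 0.569), with 0.729 and 0.396 within the sets and 0.524 without the 5. Sp8 had an r of 0.614 with septal markers (rho 0.619), with 0.713 and 0.572 within the sets and 0.610 without the 5. Otp, the homeobox factor of neurosecretory neurons, had 0.601 with hypothalamic markers (rho 0.637), with 0.514 and 0.733 within the sets and 0.581 without the 5. Adjusted permutation p for these relations with all libraries ran from 0.00049 to 0.00132 for r. Of the relations with cortical markers, that of Nkx2-2 was 0.640 (rho 0.519) with all libraries and 0.0020 without the 5, and that of Six3 was 0.491 (rho 0.410) and -0.284, with an adjusted permutation p of 0.000891 for Nkx2-2 and 0.00906 for Six3 with all libraries.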

How the data were processed

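The authors deposited 1 table of raw counts of reads per gene symbol, with 1 column per library and no scaling. The submitters' processing notes name mm10 and the tools STAR, featureCounts and DESeq2, and neither the annotation nor the strand setting is given in the sources used here. All columns were matched to libraries by name.

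The members, lists, tests and the rule for named genes were chosen with earlier results of these data known. By that rule each comparison names the members that passed (the 10 with the smallest p, where more did) or, with none, the 3 with the smallest p, and the others named are said to be so or complete a role group. EdgeR 4.0.16 in R 4.3.3 fitted 4 group means after filterByExpr and TMM, and a number-set term was added for the comparison of sets. The number of counts limits precision most for the lowest genes.

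CPM used effective library sizes, and exon lengths came from GENCODE M21. Correlations used log2 CPM with a prior count of 2. Their permutations exchanged libraries over the residuals with no allowance for the subtracted means, so the permutation p-values can be too small. Alternatives were DESeq2 1.42.0, its size factors, no filter, a replicate block, the number-set term, each number set alone and leaving out libraries. A gene that the rule names is not reported here.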

Additional observations from a re-analysis of the deposited data

Results flagged for a closer look

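Among 140 groups of one factor in one group of libraries, 10 held a library far from the others by Dixon's test, where chance flags about 1 in 20 groups, and each is given with the range of the other libraries of its group.

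In control males, MC9 stood high for Lhx6 at 95.9 CPM (others 43.8 to 66.4) and low for Bcl11a at 60.3 CPM (others 82.2 to 104.9). MC3, a library of high Mbp, stood high for Nkx2-2 at 17.3 CPM (others 3.67 to 8.20). MC7 stood low for Prox1 at 15.1 CPM (others 31.9 to 63.5).

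In stressed males, MS5, the library with choroid plexus transcripts, stood low for Lhx1 at 0.534 CPM (others 1.67 to 4.54), and MS8 stood low for Six3 at 48.8 CPM (others 70.0 to 91.4).

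In control females, FC1, another library of high Mbp, stood high for Six3 at 185.4 CPM (others 64.6 to 101.2) and for Dlx5 at 59.3 CPM (others 21.3 to 33.8). FC5 stood high for Lhx9 at 5.50 CPM (others 0.324 to 1.33). In stressed females, FS3 stood low for Satb1 at 32.9 CPM (others 37.9 to 41.2). What set these libraries apart was not tested.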

How the results depend on the processing

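For stress and sex, 0 factors passed under every alternative run. Differences of chosen factors for stress, sex and the number sets were repeated with each of 38 libraries left out. Of these 1596 results 2 changed direction and 0 their call. Both were Zic5 for stress in females, which ran from -0.24 (without FS7) to 0.25 and was -0.0025 without FC6, and -0.0031 with the number-set term. The number-set comparison had 16 to 19 passing factors with a library left out and 17 by DESeq2. In all, 10 results turned sign within a set. Within libraries numbered 1 to 5, Sp8 was -0.43, Zic1 -0.72, Zic2 -0.54, Zic4 -0.50 and Zic5 -0.87 for stress in females, and Zic1 -0.062 and Zic2 -0.035 for stress averaged over the sexes. Within libraries numbered 6 and above, Lhx9 was 0.40 and Tbr1 0.25 for stress in females, and Lhx9 -0.31 for the interaction. Within libraries numbered 1 to 5, 142 pairs of factors passed, against 237 with all libraries. Relations with marker lists passed in 57 cases within 1 to 5, 104 within 6 and above and 108 without the 5 libraries of high Mbp, against 167 with all. These repeats used fewer libraries and 10000 permutations.

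Libraries sharing a replicate number were in the median no more alike than others of the same set. Of 55 same-numbered pairs 40 correlated over 0.1, with a median of 0.235 against 0.241 for other pairs of the same set. Of 38 libraries 8 correlated best with their own number. Whether same-numbered libraries were handled together cannot be read from these values. With a replicate block 0 factors passed for stress or sex.

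Depth limits Lhx1, Zic5, Sim1 and Lhx9 most, since some libraries hold few of their reads.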
